A study of Mus musculus with 18 samples.

Results

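The collagen genes of mouse brain were followed through a comparison of fresh, snap-frozen and vitrified tissue from cortex and hippocampus. Members were all symbols made of Col, a type number, the letter a and a chain number in the read-count tables, and 44 such genes stood in each table, among 18389 genes for hippocampus and 18235 for cortex. By class, 11 were fibrillar (types I, II, III, V, XI, XXIV and XXVII), 6 belonged to the basement membrane type IV, 6 to the beaded filament type VI and 21 to other types. Each of the 6 groups held 3 libraries of total RNA selected for poly(A) tails. Fresh tissue had no treatment. Snap-frozen tissue was put straight into liquid nitrogen, and how long it was then kept is not given in the labels. Vitrified tissue was loaded in steps of 5 min with a solution of 28 wt% ethylene glycol and 22.3 wt% DMSO with sucrose in PBS, was kept at -80 °C for 4 days, was rewarmed at 37 °C, and was then unloaded and returned to PBS. A vitrified library therefore differs from a fresh one by loading, cooling, storage, rewarming and unloading, and the effects of these steps cannot be told apart. The labels name no strain, age, sex or animal for any group, so a p-value here reflects how far single libraries of a group lie apart, and that spread may be technical.

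Collagens are proteins whose chains wind around each other into a triple helix, and the chain types decide what is built. Fibrillar collagens form the fibres of meninges, dura and vessel walls, and in the brain they are made chiefly by fibroblasts of the meninges and of the perivascular space. Type IV forms the sheet-like network of basement membranes, which in brain surrounds vessels and lies under the pia, while type VI forms beaded filaments between that network and the fibres. Several of the remaining collagens sit on fibres or in basement membranes, and a few, such as type XIX and the transmembrane type XXV, are made by neurons.

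Promoter windows are shown for 4 members on which the results below turn, the basement membrane pair Col4a1 and Col4a2 and the fibre chains Col1a2 and Col3a1. The windows are from RefSeq on GRCm38.p6 and run from 250 bases before to 50 bases after the annotated start. Col4a1 at chr8:11312777-11313076 on the minus strand and Col4a2 at chr8:11312555-11312854 on the plus strand are transcribed away from each other, and capitals mark the 78 bases that both windows hold, read on opposite strands. In Col1a2, chr6:4505368-4505667 on the plus strand, capitals mark GC boxes that begin 205 and 188 bases before the start, a CCAAT box 109 bases before it and the reverse form ATTGG at the start itself. In Col3a1, chr1:45311288-45311587 on the plus strand, capitals mark a TATAAA match that begins 117 bases before the start.
Col4a1: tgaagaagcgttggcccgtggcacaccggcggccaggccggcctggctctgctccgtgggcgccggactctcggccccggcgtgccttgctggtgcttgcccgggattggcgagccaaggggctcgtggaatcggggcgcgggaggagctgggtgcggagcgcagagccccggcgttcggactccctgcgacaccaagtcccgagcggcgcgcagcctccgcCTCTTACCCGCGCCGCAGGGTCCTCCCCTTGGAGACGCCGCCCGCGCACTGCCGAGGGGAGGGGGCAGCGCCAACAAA
Col4a2: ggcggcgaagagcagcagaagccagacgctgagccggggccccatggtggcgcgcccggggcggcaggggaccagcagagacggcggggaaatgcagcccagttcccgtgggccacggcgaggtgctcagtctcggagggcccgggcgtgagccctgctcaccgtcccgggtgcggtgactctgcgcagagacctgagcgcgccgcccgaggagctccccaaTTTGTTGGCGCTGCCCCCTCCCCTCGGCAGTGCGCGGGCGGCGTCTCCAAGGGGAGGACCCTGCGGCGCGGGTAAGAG
Col1a2: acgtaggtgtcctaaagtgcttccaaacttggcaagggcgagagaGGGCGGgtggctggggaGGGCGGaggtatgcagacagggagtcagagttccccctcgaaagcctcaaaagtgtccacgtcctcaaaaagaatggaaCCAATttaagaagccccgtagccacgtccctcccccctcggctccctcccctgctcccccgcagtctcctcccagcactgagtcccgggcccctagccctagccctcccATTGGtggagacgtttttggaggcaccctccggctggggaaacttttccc
Col3a1: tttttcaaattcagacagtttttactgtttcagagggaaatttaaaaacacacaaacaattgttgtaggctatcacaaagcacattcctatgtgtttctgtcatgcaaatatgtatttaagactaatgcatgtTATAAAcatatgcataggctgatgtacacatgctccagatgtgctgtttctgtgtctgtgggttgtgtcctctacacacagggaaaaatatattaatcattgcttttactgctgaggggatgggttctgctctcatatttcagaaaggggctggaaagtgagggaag
Of the 44 members, 35 had a window. A member was counted when any window under its symbol held the motif, whereas the shares over all windows count single windows. Member counts and these shares are thus unlike measures. CCAAT (or ATTGG on the other strand) was present in 13 of the 35 members and in 37.4% of all 32817 windows of this length. GGGCGG (or CCGCCC) was present in 22 and in 35.6% of all windows, and TATAAA (or TTTATA) in 5 and in 13.6%. No searched motif contains another, and a match describes the letters only.

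Library totals ran from 15725356 to 17480302 counts, so 3 counts corresponded to 0.172 to 0.19 CPM, which here are counts per 1000000 of the library total after TMM scaling within a tissue. Between 4.39% and 5.16% of the values in a library were not whole, which shows estimated counts. Snap-frozen cortex replicate 3 stood apart from the other snap-frozen cortex libraries, at -17.8 against -10.8 and -10.1 on the second principal component, and no libraries were identical. Markers checked the tissue labels. The summed level of 9 hippocampal field markers was 889 to 899 CPM in fresh and 876 to 883 in vitrified hippocampus. In snap-frozen hippocampus it was 480.1 to 495 CPM. In cortex it was 257 to 267 CPM in fresh, 249.7 to 262 in vitrified and 288 to 318 in snap-frozen libraries. In snap-frozen hippocampus 9 of the 9 fell, and 7 of 7 tested thalamus markers rose, with summed levels of 149.8 to 152 CPM in fresh and 477 to 504 in snap-frozen libraries. Of all genes 30.7% fell and 31.5% rose there. The snap-frozen hippocampus libraries thus differ from the fresh ones in regional markers as well as in state, and region and state cannot be told apart there. The 8 striatum markers summed to 1386 to 1389.9 CPM in untreated cortex, and vitrified cortex held 1344 to 1389 CPM. Snap-frozen cortex held less, 1154 to 1166 CPM. Hippocampus lay far lower, at 105 to 112 CPM when vitrified, 111 to 122 when fresh and 195 to 199 when snap-frozen. Cortex libraries were thus rich in striatum markers, and the part of striatal tissue in the cortex results was not tested. By less, snap-frozen cortex also differed from fresh cortex in the hippocampal field and striatum sums. Region and state cannot be told apart there either. All 12 astrocyte markers fell with vitrification in both tissues, where 25.3% of all genes fell in hippocampus and 17.3% in cortex. Their sum went from 6231 to 6282 CPM to 2231 to 2254 in hippocampus and from 6386 to 6473 to 3559 to 3633 in cortex. Whether these shifts have a part in the collagen results below was not tested. In bulk tissue fewer cells of a type and less RNA per cell cannot be told apart.

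Per kilobase of exon, the most abundant collagens of fresh hippocampus were Col4a2 (14.5 CPM per kb), Col6a1 (14.3), Col25a1 (13.1) and Col4a1 (9.14). In fresh cortex Col6a1 led at 19.8 CPM per kb, before Col4a2 at 9.92, Col25a1 at 7.56 and Col4a1 at 6.67. The lowest in both was Col6a6, at 0.0116 and 0.0246 CPM per kb. Vitrified cortex had the same gene in front, Col6a1 at 36 CPM per kb, whereas in snap-frozen hippocampus Col6a1 stood at 2.99 and Col4a2 led at 12.2. Type I chains sat low in hippocampus, Col1a2 at 1.43 CPM per kb, and higher in cortex, at 5.4.

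More collagens rose than fell in both vitrified tissues and in snap-frozen hippocampus, and more fell than rose in snap-frozen cortex. Changes are log2 fold changes ± SE from edgeR's quasi-likelihood test, and a gene was called to have risen or fallen when its p, after Benjamini-Hochberg adjustment over all genes tested, was under 0.05. In vitrified hippocampus 19 of 41 tested members rose and 2 fell, where 49.1% of all 14528 genes were called (23.8% rose and 25.3% fell), so the share of members called lay near that of all genes, and the members' median change was 0.28 against 0.01 over all genes. Vitrified cortex had 20 risen and 8 fallen of 43, with 40.5% of all 14470 genes called (23.2% rose, 17.3% fell) and a median of 0.35 against 0.03. In snap-frozen hippocampus 22 of 41 rose and 11 fell, with 62.2% of all genes called (31.5% rose, 30.7% fell) and a median of 0.53 against 0.01. Snap-frozen cortex went the other way, with 1 of 43 risen and 23 fallen, where 34% of all genes were called (16.4% rose, 17.6% fell), and the median was -0.41 against 0.00. The 2 comparisons within a tissue share the fresh libraries. Col6a6, Col10a1 and Col17a1 in hippocampus and Col6a6 in cortex were too low to test.

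**Figure D1:**
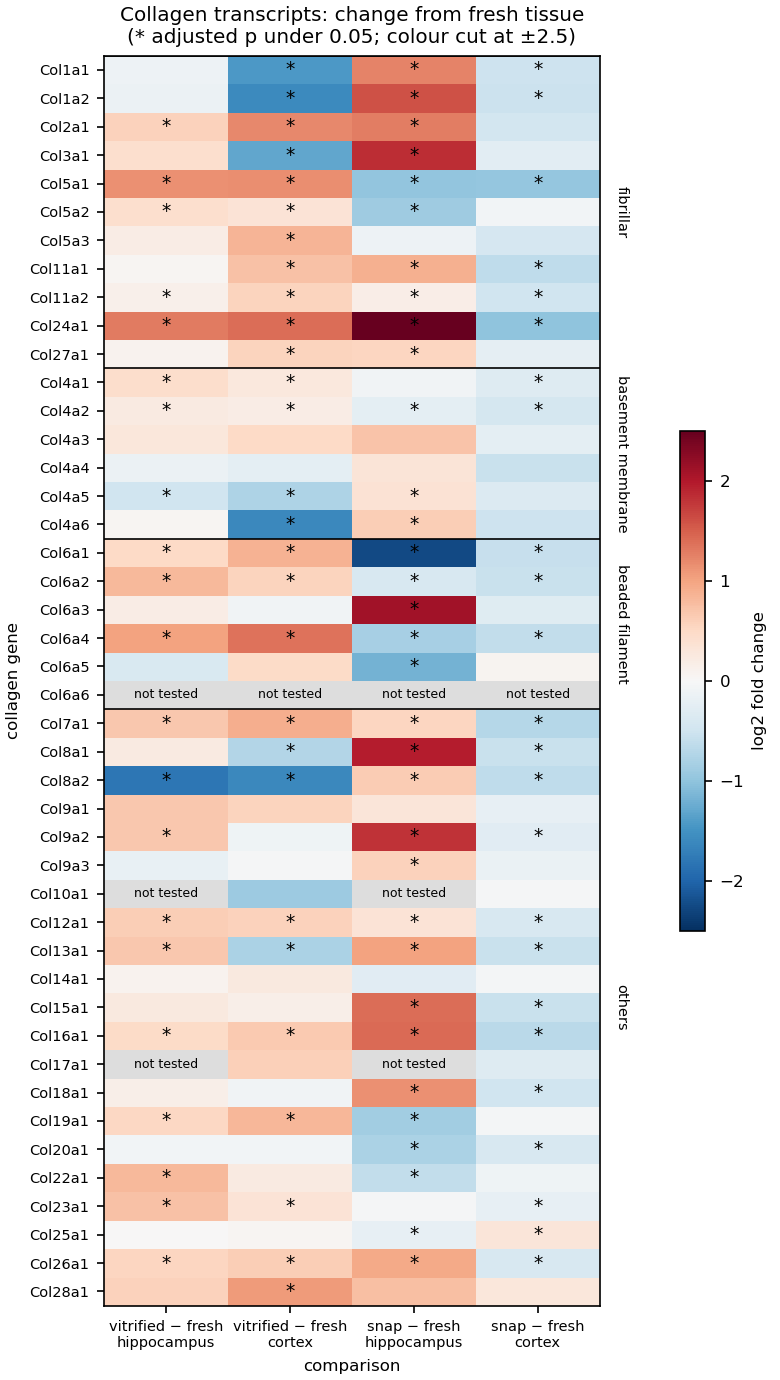
Log2 fold change from fresh tissue (colour) of each collagen (in order of class) in the 4 comparisons with fresh, with calls at an adjusted p under 0.05 marked. Snap-frozen cortex is almost wholly on the side of lower values, with 23 of 43 fallen and 1 risen, while snap-frozen hippocampus holds 22 risen beside 11 fallen.

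The calls did not rest equally on every library. When each library was left out in turn, 15 of the 21 calls in vitrified hippocampus held in every fit, as did 30 of 33 in snap-frozen hippocampus, 27 of 28 in vitrified cortex and 16 of 24 in snap-frozen cortex. The members that lost a call are named with their class. Libraries of both groups did not overlap for 24 of 41 members in vitrified hippocampus (54.6% of all genes), 34 of 41 in snap-frozen hippocampus (65.2%), 28 of 43 in vitrified cortex (52.5%) and 27 of 43 in snap-frozen cortex (43.9%). In vitrified hippocampus the members' share thus lies near that of all genes. A called change of more than 1 on the log2 scale was seen for 3 members in vitrified hippocampus (3.79% of all genes), 14 in snap-frozen hippocampus (8.47%), 10 in vitrified cortex (1.8%) and 0 in snap-frozen cortex (0.705%).

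The chains of the common fibres, Col1a1 and Col1a2 of type I and Col3a1 of type III, fell in vitrified cortex and rose in snap-frozen hippocampus. Col1a2, the second chain of type I, read 29.6, 28.6 and 28.4 CPM in fresh cortex, 21, 20 and 18.6 in snap-frozen cortex and 9.38, 9.11 and 10.3 in vitrified cortex. The 3 groups did not overlap. Col1a2 fell by 1.59 ± 0.07 on the log2 scale with vitrification (3.01-fold lower, adjusted p = 1.4e-16) and by 0.54 ± 0.06 with snap-freezing (adjusted p = 1.4e-07). In hippocampus Col1a2 read 7.6, 7.86 and 7.56 CPM in fresh, 22.8, 22.9 and 24.3 in snap-frozen and 6.59, 7.36 and 6.88 in vitrified libraries. The snap-frozen libraries were all high, at a change of 1.60 ± 0.08 (adjusted p = 4.9e-23), and the vitrified ones were all below the fresh ones but at -0.14 ± 0.10 did not pass the test (adjusted p = 0.273).

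Col1a1, the other type I chain, read 13.4, 11.6 and 11.2 CPM in fresh, 8.94, 9.35 and 7.03 in snap-frozen and 5.37, 3.86 and 4.27 in vitrified cortex. It fell by 1.43 ± 0.13 with vitrification (adjusted p = 1.9e-10) and by 0.52 ± 0.11 with snap-freezing (adjusted p = 0.00045). Fresh hippocampus held less, 4.29, 5.34 and 5.78 CPM, the vitrified libraries at 4.52, 4.63 and 4.92 lay within that range, and the snap-frozen ones at 11.4, 12.5 and 12.4 rose by 1.24 ± 0.11 (adjusted p = 2.8e-14). Col3a1, which forms fibres in vessel walls and binds the receptor Adgrg1, also rose with snap-freezing in hippocampus and fell with vitrification in cortex. In hippocampus it read 1.59, 1.47 and 1.54 CPM in fresh, 5.37, 5.94 and 5.38 in snap-frozen and 2.57, 1.9 and 1.7 in vitrified libraries, with a rise of 1.85 ± 0.17 on snap-freezing (adjusted p = 3.2e-13), while the value of 0.42 ± 0.22 on vitrification did not pass the test (adjusted p = 0.101). In cortex it fell from 6.19, 5.81 and 6.25 CPM to 2.34, 2.15 and 2.95 with vitrification, by 1.29 ± 0.15 (adjusted p = 3.3e-08). Snap-frozen cortex at 4.67, 4.82 and 5.59 CPM lay below the fresh libraries without passing the test (adjusted p = 0.0925).

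Markers of fibroblasts moved beside these chains in cortex. Of 14 meningeal and perivascular fibroblast markers that are not collagens, 10 fell and 0 rose in vitrified cortex. In snap-frozen cortex 7 fell and 1 rose. Of all genes 17.3% fell and 23.2% rose in vitrified cortex, and 17.6% and 16.4% in snap-frozen cortex. In hippocampus these shares were 25.3% and 23.8% with vitrification and 30.7% and 31.5% with snap-freezing. In cortex their summed level was 236 to 248 CPM in the fresh libraries, 173 to 195 in the snap-frozen and 115 to 120.3 in the vitrified ones. In hippocampus 11 rose and 2 fell in snap-frozen and 10 rose and 0 fell in vitrified tissue, where Col1a1 and Col1a2 were not called, with summed levels of 85.7 to 88.9 CPM in the fresh libraries, 124 to 128 in the snap-frozen and 116 to 124 in the vitrified ones. Choroid plexus markers fell further, 13 of 13 in vitrified cortex, and their sum was 329 to 425 CPM in fresh cortex, 138 to 147 when snap-frozen and 9.74 to 11.1 when vitrified. In hippocampus the choroid plexus sum was 36.6 to 39 CPM before treatment, 42.5 to 45.3 after snap-freezing and 37.6 to 39.2 after vitrification. No fibroblast marker was at 0 in any group, 1 choroid plexus marker was at 0 in all vitrified hippocampus libraries, and the part of these cells in the collagen result was not tested.

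**Figure D2:**
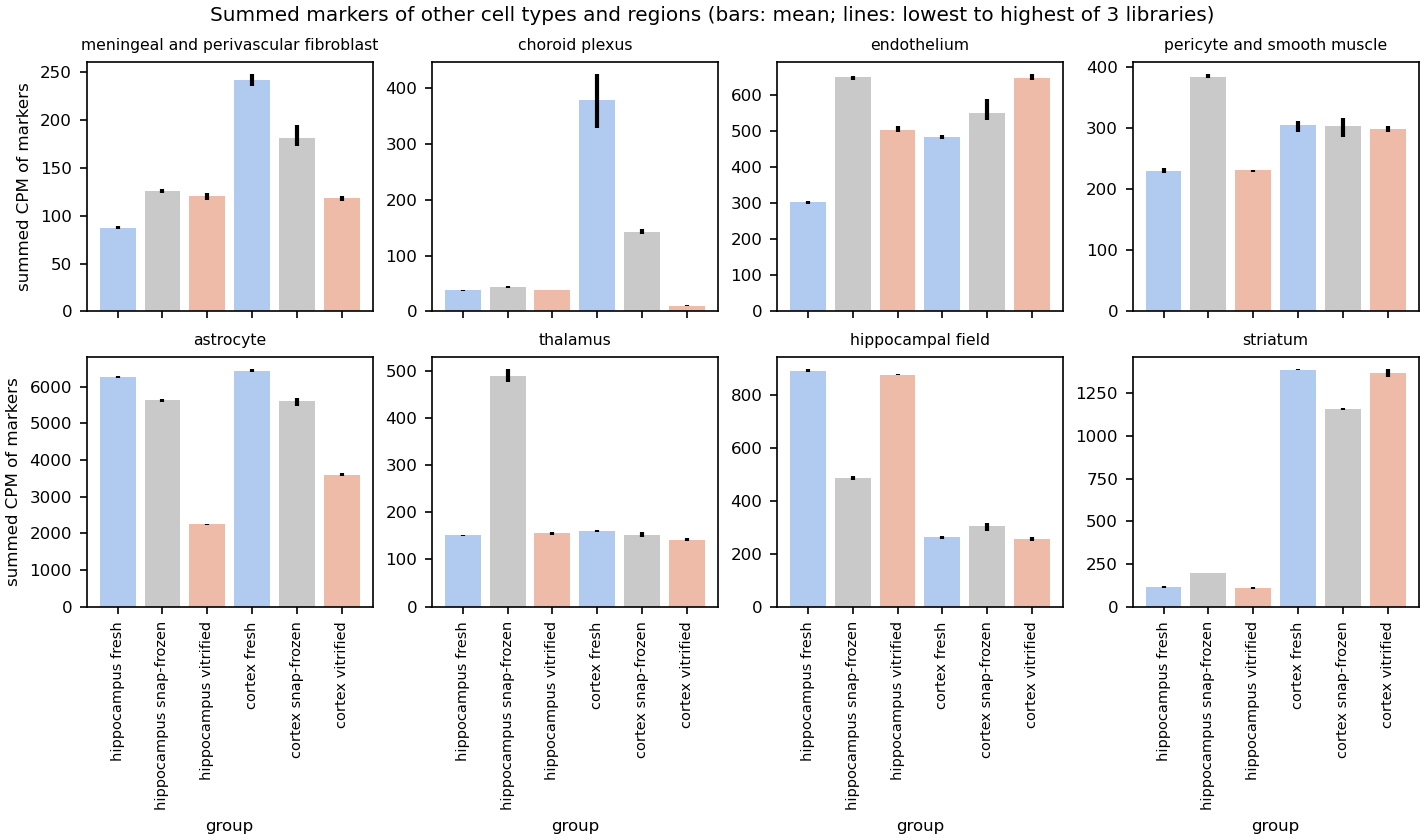
Mean summed CPM (bars) of 8 lists of cell type or region markers (panels) in each group, fresh, snap-frozen and vitrified, for both tissues. Lines run from the lowest to the highest of the 3 libraries. Within cortex the fibroblast and choroid plexus sums are lowest in the vitrified libraries, at 115 to 120.3 and 9.74 to 11.1 CPM, and the thalamus sum is highest in snap-frozen hippocampus, at 477 to 504 CPM.

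Col5a1 and Col5a2, chains of type V, which joins type I fibrils and limits their width, rose with vitrification in both tissues. Col5a1 read 18.8, 17.7 and 16.8 CPM in fresh hippocampus, 8.09, 9.69 and 9.16 in snap-frozen and 36.6, 41.9 and 39.7 in vitrified libraries. In cortex it read 28.3, 28.7 and 27.4 in fresh, 15.1, 14 and 14.2 in snap-frozen and 63.7, 62.4 and 62.0 in vitrified libraries. No groups overlapped within a tissue, and in both the vitrified libraries were highest and the snap-frozen lowest. The rise with vitrification was 1.15 ± 0.06 in hippocampus (adjusted p = 3.2e-20) and 1.16 ± 0.05 in cortex (adjusted p = 2.4e-17), and the fall with snap-freezing was 0.99 ± 0.09 (adjusted p = 3.9e-14) and 0.96 ± 0.06 (adjusted p = 3e-12).

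Col5a2 followed in hippocampus, from 12.7, 13.2 and 13.5 CPM in fresh to 17, 17.6 and 18.1 in vitrified and 7.4, 6.92 and 7.1 in snap-frozen libraries, changes of 0.42 ± 0.07 (adjusted p = 6.8e-06) and -0.88 ± 0.09 (adjusted p = 5.6e-12). In cortex its rise of 0.35 ± 0.12 with vitrification (adjusted p = 0.0218) was lost in 4 of the 6 fits that left out 1 library, without fresh replicate 1 or 2 (adjusted p = 0.0555 and 0.0702) and without vitrified replicate 2 or 3 (adjusted p = 0.0904 and 0.0894). Snap-frozen cortex gave -0.06 ± 0.13 for it. Col5a3 rose in vitrified cortex, from 2.48, 3.29 and 2.74 CPM to 5.43, 4.81 and 5.15 (0.85 ± 0.15, adjusted p = 3.3e-05), and passed the test in none of the other comparisons with fresh tissue, at 0.19 in vitrified hippocampus, -0.13 in snap-frozen hippocampus and -0.42 in snap-frozen cortex.

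Col24a1, a minor fibrillar collagen, had the largest ratio of any member between its highest and lowest group mean. It was barely present in fresh hippocampus, at 0.735, 0.43 and 0.553 CPM, and read 11, 10.7 and 12.9 in snap-frozen hippocampus, a rise of 4.32 ± 0.22 (19.9-fold, adjusted p = 3.5e-22). In cortex it read 7.14, 7.92 and 6.96 CPM in fresh, 2.88, 4.3 and 3.86 in snap-frozen and 19.9, 19 and 18.8 in vitrified libraries. Cortex groups did not overlap, with a rise of 1.39 ± 0.09 on vitrification (adjusted p = 4.1e-13) and a change of -1 ± 0.13 on snap-freezing (adjusted p = 5.9e-07). In vitrified hippocampus the libraries spread over 1.44, 0.444 and 2.34 CPM and overlapped the fresh ones. The call there, 1.29 ± 0.37 (adjusted p = 0.00313), was lost without vitrified replicate 3, at 0.72 (adjusted p = 0.154).

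The remaining fibrillar chains are known from cartilage. Col11a1, a chain of type XI, read 25.4, 26.9 and 27.6 CPM in fresh, 48.5, 49.2 and 49.8 in snap-frozen and 26.2, 28.3 and 28.2 in vitrified hippocampus, a rise of 0.88 ± 0.05 on snap-freezing (adjusted p = 1.8e-20) and a value of 0.05 ± 0.06 on vitrification (adjusted p = 0.52). In cortex the snap-frozen libraries were lowest and the vitrified highest, at 15.6, 14.7 and 14.3 CPM in fresh, 10, 9.47 and 9.39 in snap-frozen and 25.6, 23.9 and 25.2 in vitrified libraries, changes of -0.63 ± 0.08 (adjusted p = 5.4e-07) and 0.74 ± 0.07 (adjusted p = 2.9e-10). Col11a2, the second type XI chain, rose by 0.56 ± 0.06 in vitrified cortex and by 0.17 ± 0.05 in snap-frozen hippocampus and fell by 0.50 ± 0.06 in snap-frozen cortex. Its rise of 0.13 ± 0.05 in vitrified hippocampus (adjusted p = 0.0242) was lost without fresh replicate 2 (0.12, adjusted p = 0.0597) or vitrified replicate 3 (0.12, adjusted p = 0.0728).

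Col2a1, the main cartilage collagen, stayed under 4 CPM in every library. It rose in vitrified cortex, from 1.3, 0.763 and 0.952 CPM to 1.85, 2.59 and 2.57 (1.21 ± 0.24, adjusted p = 0.00014), and in snap-frozen hippocampus, from 1.16, 1.41 and 1.47 to 3.76, 3.46 and 2.63 (1.28 ± 0.21, adjusted p = 7.1e-07). Its rise of 0.58 ± 0.24 in vitrified hippocampus (adjusted p = 0.0389) was lost without fresh replicate 1 or 2 (adjusted p = 0.131 and 0.0619) and without vitrified replicate 1 or 2 (adjusted p = 0.179 and 0.101). Col27a1 rose by 0.54 ± 0.11 in snap-frozen hippocampus and by 0.56 ± 0.12 in vitrified cortex, and gave 0.09 ± 0.12 in vitrified hippocampus and -0.23 ± 0.13 in snap-frozen cortex, which did not pass the test. Over the class, 5 of 11 fibrillar members rose and 0 fell in vitrified hippocampus, and 8 rose and 3 fell in vitrified cortex. In snap-frozen hippocampus 8 rose and 2 fell, and in snap-frozen cortex 6 fell and 0 rose. In the same order, 45.5%, 100%, 90.9% and 54.5% were called, against 49.1%, 40.5%, 62.2% and 34% of all genes. In vitrified hippocampus the class share thus lay near that of all genes.

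**Figure D3:**
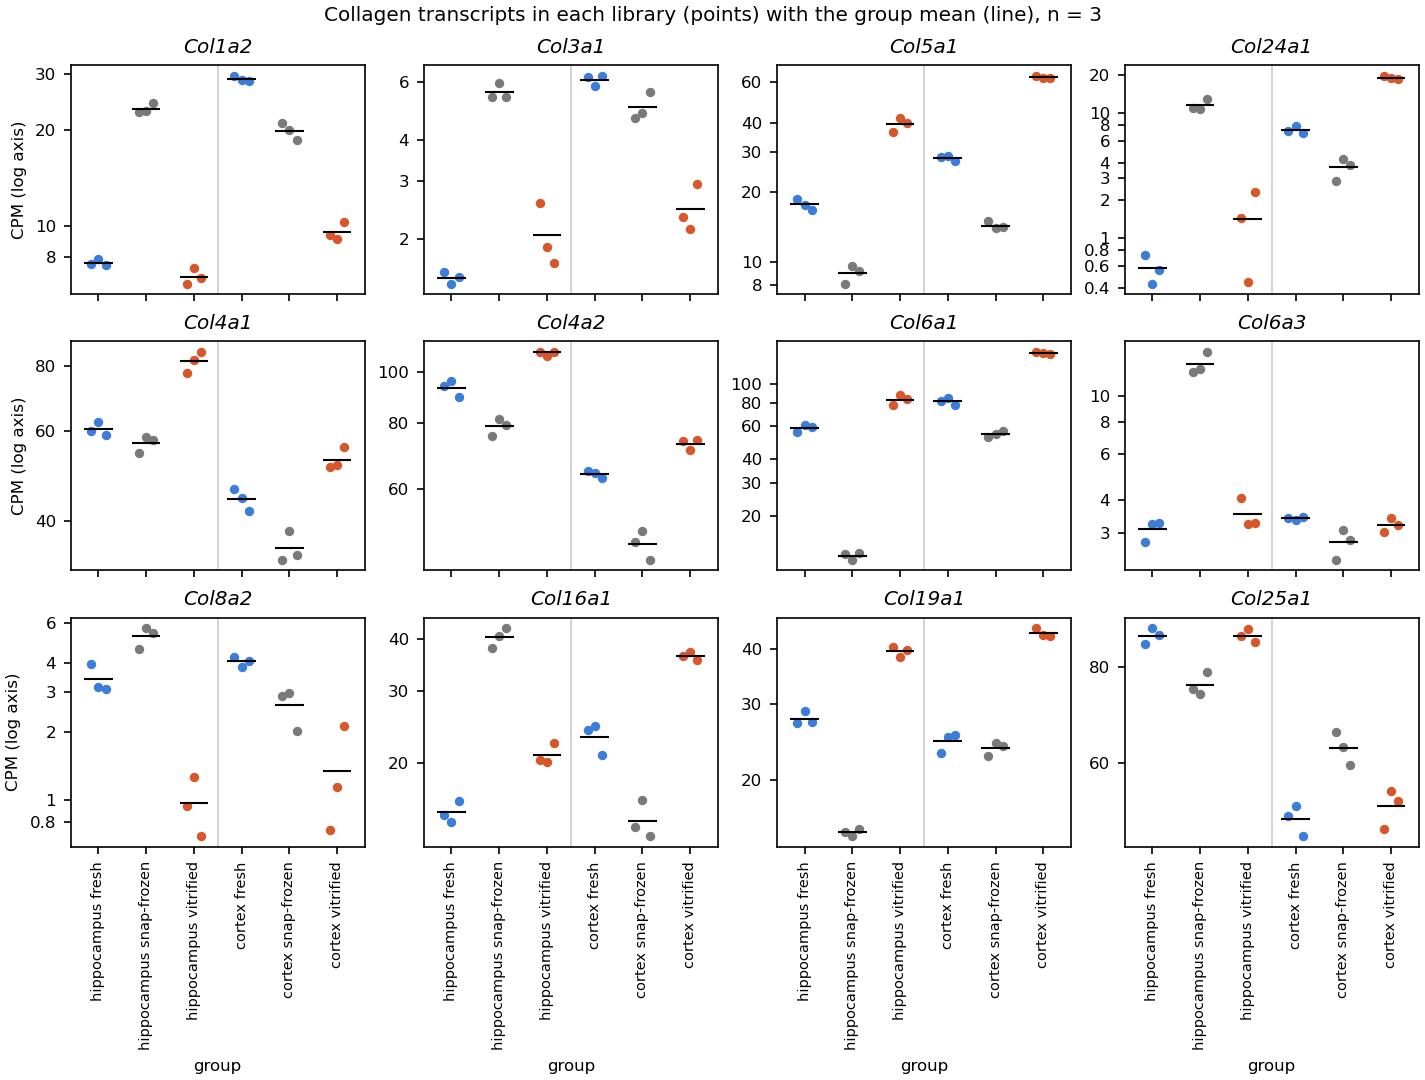
CPM of 12 collagens (panels, log axis) in each of the 3 libraries of each of the 6 groups. Col5a1 is highest in the vitrified and lowest in the snap-frozen libraries of both tissues, whereas Col1a2 and Col3a1 are highest in the snap-frozen libraries within hippocampus and lowest in the vitrified libraries within cortex.

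In the basement membrane class, the ubiquitous chains Col4a1 and Col4a2 rose with vitrification in both tissues, by smaller amounts than Col5a1. Col4a1 read 59.9, 62.4 and 58.9 CPM in fresh and 77.8, 82.2 and 85.4 in vitrified hippocampus, and 46.1, 44.4 and 41.8 in fresh and 50.9, 51.4 and 55.8 in vitrified cortex. No groups overlapped, and the rise was 0.44 ± 0.04 in hippocampus (adjusted p = 7.9e-13) and 0.26 ± 0.05 in cortex (adjusted p = 0.00034). Col4a2, its partner across the shared start region printed above, rose from 94.1, 95.9 and 89.6 CPM to 109, 107 and 109 in hippocampus (0.22 ± 0.03, adjusted p = 5e-07) and from 64.8, 64.2 and 62.9 to 74.0, 71.2 and 74.2 in cortex (0.19 ± 0.04, adjusted p = 0.00089).

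With snap-freezing both chains fell in cortex, Col4a1 to 33.6, 38.2 and 34.3 CPM (-0.32 ± 0.06, adjusted p = 7.8e-05) and Col4a2 to 47.5, 50.0 and 44.0 (-0.44 ± 0.05, adjusted p = 3.1e-08). In hippocampus Col4a2 fell to 75.5, 81.5 and 79.3 (-0.24 ± 0.04, adjusted p = 7.9e-08). Col4a1 in snap-frozen hippocampus read 54.2, 58.4 and 57.4 CPM, all below the fresh libraries, and at -0.09 ± 0.04 missed the threshold (adjusted p = 0.0551). It passed without fresh replicate 3 (-0.11, adjusted p = 0.0354) or snap-frozen replicate 2 (-0.12, adjusted p = 0.0357), and scaling by library totals alone gave 0.03. The annotated exons of both genes share 22 bases on opposite strands, 0.295% of those of Col4a1 and 0.332% of those of Col4a2.

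Col4a5 and Col4a6, which pair in the basement membranes of smooth muscle and other tissues, moved differently. Col4a6 fell in vitrified cortex, from 2.12, 2.41 and 1.84 CPM to 0.555, 0.822 and 0.69 (-1.62 ± 0.26, adjusted p = 7.8e-06), and gave 0.04 ± 0.29 in vitrified hippocampus (adjusted p = 0.925). Its rise of 0.62 ± 0.26 in snap-frozen hippocampus (adjusted p = 0.038) was lost without fresh replicate 1 or 2 (adjusted p = 0.0549 and 0.26) or snap-frozen replicate 2 (adjusted p = 0.163). Col4a5 fell in vitrified cortex, from 5.96, 4.93 and 4.23 CPM to 3.02, 2.97 and 2.82 (-0.78 ± 0.16, adjusted p = 0.00019). In hippocampus its libraries overlapped in both comparisons: the fall of 0.50 with vitrification was lost without fresh replicate 1 (-0.39, adjusted p = 0.0644), and the rise of 0.36 with snap-freezing was lost without fresh replicate 2 (0.23, adjusted p = 0.184) or snap-frozen replicate 3 (0.25, adjusted p = 0.15). Col4a3 and Col4a4, chains of the kidney filter, lay between 0.231 and 1.56 CPM in every library and passed the test in none of the 4 comparisons. In snap-frozen cortex Col4a6 (-0.52, adjusted p = 0.0577) passed without snap-frozen replicate 1 (-0.67, adjusted p = 0.0329), and Col4a5 (-0.34, adjusted p = 0.0713) passed without fresh replicate 3 (-0.45, adjusted p = 0.0289) or snap-frozen replicate 1 (-0.43, adjusted p = 0.0388).

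More endothelial markers rose than fell in each comparison with fresh tissue. Of 16 endothelial markers, 15 rose and 1 fell in vitrified hippocampus, and 12 rose and 1 fell in vitrified cortex. In snap-frozen hippocampus 16 rose and 0 fell, and in snap-frozen cortex 7 rose and 0 fell. The shares of all genes that rose were 23.8%, 23.2%, 31.5% and 16.4% in the same order. Endothelial summed levels are given next. Their summed level in hippocampus was 298 to 307 CPM in the fresh libraries, 640.4 to 653 in the snap-frozen and 497 to 513 in the vitrified ones, and in cortex 477 to 488, 530.3 to 587 and 639.5 to 657. Of 13 pericyte and smooth muscle markers, 12 rose and 0 fell in snap-frozen hippocampus (226 to 234 CPM in fresh, 382 to 388 in snap-frozen), and 4 rose and 1 fell in vitrified hippocampus (228 to 232 CPM). In cortex their sum was 293 to 312 CPM in the fresh libraries, 285 to 317 in the snap-frozen and 294 to 303 in the vitrified ones. No marker of either list was at 0 in all libraries of a group, and their part in the type IV result was not tested.

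In the beaded filament class, Col6a1 had the largest fall of any tested member in snap-frozen hippocampus. It encodes a chain of the type VI filament and read 55.8, 61.0 and 59.3 CPM in fresh, 12.5, 11.6 and 12.6 in snap-frozen and 78.0, 87.4 and 83.3 in vitrified hippocampus. The snap-frozen libraries were 4.79-fold lower (-2.26 ± 0.06, adjusted p = 2.5e-33) and the vitrified ones higher (0.50 ± 0.04, adjusted p = 3.2e-14). In cortex it read 81.3, 84.8 and 77.4 CPM in fresh, 52.3, 54.3 and 56.2 in snap-frozen and 149, 147 and 146 in vitrified libraries. Cortex groups kept the same order without overlap, at -0.58 ± 0.04 (adjusted p = 3.9e-11) and 0.86 ± 0.04 (adjusted p = 6.5e-17).

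Col6a2, which joins Col6a1 in the same trimer, moved in the same directions by less on snap-freezing in hippocampus. It read 13.9, 10.6 and 12.7 CPM in fresh, 9.42, 10.2 and 8.53 in snap-frozen and 23, 21.3 and 21.5 in vitrified hippocampus, changes of -0.40 ± 0.09 (adjusted p = 0.00024) and 0.82 ± 0.08 (adjusted p = 3.7e-12). In cortex the fall was 0.56 ± 0.08 (adjusted p = 2.2e-06) and the rise 0.56 ± 0.07 (adjusted p = 1e-07). Col6a3, the large chain that completes the common trimer, went against both in snap-frozen hippocampus, where 12.4, 12.7 and 14.8 CPM stood above 2.76, 3.25 and 3.26 in fresh tissue (4.3-fold, 2.10 ± 0.12, adjusted p = 1.5e-20). It passed the test in none of the other comparisons with fresh tissue, at 0.19 ± 0.16 in vitrified hippocampus, -0.08 ± 0.15 in vitrified cortex and -0.31 ± 0.16 in snap-frozen cortex.

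Col6a4, Col6a5 and Col6a6 are alternative chains of type VI. Col6a4 rose with vitrification, from 6.99, 5.59 and 6.7 CPM to 13, 13 and 12.6 in hippocampus (1 ± 0.10, adjusted p = 7.6e-12) and from 4.13, 4.11 and 3.99 to 9.32, 10.1 and 12 in cortex (1.36 ± 0.13, adjusted p = 1.5e-09). It fell with snap-freezing, by 0.83 ± 0.13 in hippocampus and by 0.62 ± 0.17 in cortex, and the latter call (adjusted p = 0.00659) was lost without snap-frozen replicate 2 (-0.44, adjusted p = 0.0574). Col6a5 fell in snap-frozen hippocampus, from 3.06, 1.6 and 1.78 CPM to 0.924, 0.75 and 1.14 (-1.19 ± 0.27, adjusted p = 0.00014). Col6a6 reached at most 0.627 CPM. Some values of Col6a5 and Col6a6 were not whole, so reads may have been split between near-identical sequences and both are uncertain.

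Among the collagens that sit on fibres, Col16a1 and Col19a1 carried the clearest changes. Col16a1 read 15, 14.4 and 16.2 CPM in fresh, 38.2, 40.8 and 42.6 in snap-frozen and 20.4, 20.1 and 22.4 in vitrified hippocampus (1.41 ± 0.06, adjusted p = 1.6e-24 and 0.47 ± 0.07, adjusted p = 6.8e-07). In cortex it read 24.1, 24.7 and 20.9 in fresh, 14, 16.3 and 13.3 in snap-frozen and 36.5, 37.2 and 35.6 in vitrified libraries (-0.68 ± 0.08, adjusted p = 1e-07 and 0.65 ± 0.07, adjusted p = 4.9e-09). Thus vitrified tissue was higher than fresh in both regions, and snap-frozen tissue was higher in hippocampus and lower in cortex. Col19a1, which certain neurons of mouse brain make, read 27.1, 28.9 and 27.2 CPM in fresh, 15.2, 14.9 and 15.5 in snap-frozen and 40.5, 38.4 and 39.8 in vitrified hippocampus (-0.87 ± 0.06, adjusted p = 1.6e-16 and 0.51 ± 0.05, adjusted p = 3.2e-11). In cortex vitrified libraries at 44.7, 43.1 and 42.9 CPM stood above fresh ones at 23.1, 25.1 and 25.4 (0.83 ± 0.06, adjusted p = 7.4e-13), while snap-frozen ones at 22.7, 24.4 and 24 overlapped them (-0.05 ± 0.06, adjusted p = 0.57).

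Of the other fibre-associated members, Col9a2, a chain of the cartilage type IX, rose from 3.86, 3.44 and 3.2 CPM to 12.6, 11.8 and 12.5 in snap-frozen hippocampus (1.81 ± 0.11) and to 5.52, 6.03 and 5.3 in vitrified hippocampus (0.68 ± 0.13), with -0.11 ± 0.10 in vitrified cortex. Its fall of 0.29 ± 0.10 in snap-frozen cortex (adjusted p = 0.0286) was lost without fresh replicate 1 or 2 (adjusted p = 0.0863 and 0.0757) or snap-frozen replicate 3 (adjusted p = 0.0932). Col9a3 rose by 0.58 ± 0.07 in snap-frozen hippocampus. Its change of -0.19 ± 0.08 in vitrified hippocampus (adjusted p = 0.0527) passed without fresh replicate 2 (-0.26, adjusted p = 0.0132) or vitrified replicate 3 (-0.23, adjusted p = 0.0388), and -0.17 ± 0.09 in snap-frozen cortex (adjusted p = 0.128) passed without snap-frozen replicate 3 (-0.27, adjusted p = 0.0159). For Col9a3 6.07% of the exonic bases are shared with Tcfl5 on the other strand, so its counts are uncertain unless strand was used. Col12a1, which binds type I fibrils, rose with vitrification in hippocampus (0.61 ± 0.10) and cortex (0.58 ± 0.07) and fell in snap-frozen cortex (-0.40 ± 0.08). Its rise of 0.34 ± 0.10 in snap-frozen hippocampus was lost without fresh replicate 2 (0.20, adjusted p = 0.1). Col20a1 fell with snap-freezing, by 0.79 ± 0.07 in hippocampus and by 0.40 ± 0.07 in cortex, and gave -0.07 in both vitrified tissues. Col22a1 rose by 0.81 ± 0.15 in vitrified and fell by 0.61 ± 0.19 in snap-frozen hippocampus, and Col9a1 and Col14a1 passed the test in none of the 4 comparisons. Over the 9 members of this kind, 5 rose and 0 fell in vitrified hippocampus, and 3 rose and 0 fell in vitrified cortex. In snap-frozen hippocampus 4 rose and 3 fell, and in snap-frozen cortex 4 fell and 0 rose. In the same order, 55.6%, 33.3%, 77.8% and 44.4% were called, against 49.1%, 40.5%, 62.2% and 34% of all genes.

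Col15a1 and Col18a1, the multiplexins of vascular basement membranes, rose in snap-frozen hippocampus. Col15a1 read 5.64, 6.51 and 5.78 CPM in fresh, 15.7, 16.5 and 15.2 in snap-frozen and 7.02, 6.85 and 7.39 in vitrified hippocampus, at 1.40 ± 0.09 (adjusted p = 3.2e-18) and 0.25 ± 0.11 (adjusted p = 0.0633). It passed in vitrified hippocampus without fresh replicate 2 (0.31, adjusted p = 0.0384). Col18a1, whose end fragment is endostatin, went from 3.86, 4.73 and 4.49 CPM in fresh to 9.65, 9.23 and 9.9 in snap-frozen hippocampus (1.14 ± 0.11, adjusted p = 3.9e-12) and gave 0.15 ± 0.13 with vitrification (adjusted p = 0.373). In cortex Col15a1 fell from 5.96, 6.4 and 6.13 to 4.21, 4.18 and 4.26 CPM with snap-freezing (-0.55 ± 0.13, adjusted p = 0.00125). Col18a1 overlapped there, at 6.08, 6.57 and 5.18 against 3.52, 5.29 and 3.8 CPM, and its call (-0.50 ± 0.14, adjusted p = 0.00775) was lost without fresh replicate 2 (-0.42, adjusted p = 0.0551) or snap-frozen replicate 1 (-0.39, adjusted p = 0.0518). Neither passed the test in vitrified cortex.

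Col25a1, a transmembrane collagen of neurons that accumulates in amyloid plaques, changed by at most 0.31 in size in any comparison with fresh tissue. It read 85.6, 89.9 and 88.0 CPM in fresh, 74.9, 73.7 and 78.8 in snap-frozen and 87.9, 89.7 and 86.1 in vitrified hippocampus (-0.21 ± 0.04, adjusted p = 1.5e-06 and 0.00 ± 0.04, adjusted p = 0.986). In cortex it read 51.1, 52.7 and 48.1 in fresh, 65.7, 62.8 and 59.6 in snap-frozen and 49.2, 55.1 and 53.5 in vitrified libraries (0.31 ± 0.05, adjusted p = 2.1e-05 and 0.05 ± 0.05, adjusted p = 0.43). It was the only member called to have risen in snap-frozen cortex. Col23a1 rose with vitrification in hippocampus (0.74 ± 0.08) and cortex (0.35 ± 0.07), and its fall of 0.20 ± 0.08 in snap-frozen cortex (adjusted p = 0.0486) was lost without any 1 of the 6 libraries (adjusted p = 0.0537 to 0.22). Col13a1, known from the neuromuscular junction, rose in snap-frozen hippocampus (1.01 ± 0.25) and fell in vitrified cortex (-0.79 ± 0.21). Its rise in vitrified hippocampus (0.67 ± 0.27, adjusted p = 0.0372) was lost without fresh replicate 1 or 3 or any 1 of the vitrified libraries (adjusted p = 0.0546 to 0.175). Its fall in snap-frozen cortex (-0.56 ± 0.20, adjusted p = 0.03) was lost without fresh replicate 1 or snap-frozen replicate 1 or 3 (adjusted p = 0.0821 to 0.151). Col17a1 of skin hemidesmosomes was tested in cortex alone, and its change of 0.59 ± 0.27 with vitrification (adjusted p = 0.0756) passed only without vitrified replicate 3 (0.75, adjusted p = 0.0424).

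Col8a2, a short-chain collagen of vessel walls and the cornea, had the largest fall of any member with vitrification in hippocampus. It read 3.98, 3.13 and 3.07 CPM in fresh, 4.62, 5.71 and 5.44 in snap-frozen and 0.941, 1.27 and 0.695 in vitrified hippocampus, and 4.25, 3.87 and 4.11 in fresh, 2.88, 2.96 and 2.02 in snap-frozen and 0.74, 1.14 and 2.13 in vitrified cortex. The vitrified libraries of both tissues lay below all fresh ones, at -1.80 ± 0.22 (adjusted p = 2.8e-09) and -1.61 ± 0.23 (adjusted p = 1.2e-06). With snap-freezing it rose in hippocampus (0.63 ± 0.15, adjusted p = 0.00032), and its fall in cortex (-0.64 ± 0.19, adjusted p = 0.0107) was lost without snap-frozen replicate 3 (-0.48, adjusted p = 0.0573). Its partner Col8a1 rose from 0.735, 0.368 and 0.614 to 2.37, 2.42 and 1.95 CPM in snap-frozen hippocampus (1.96 ± 0.28) and fell in vitrified cortex (-0.74 ± 0.17). Its fall in snap-frozen cortex (-0.55 ± 0.16, adjusted p = 0.00824) was lost without fresh replicate 2 (adjusted p = 0.0588) or snap-frozen replicate 3 (adjusted p = 0.0556). Col10a1, of growth plate cartilage, stayed under 1 CPM throughout, and its change in vitrified cortex (-0.90 ± 0.43, adjusted p = 0.0932) passed without fresh replicate 3 (-1.2, adjusted p = 0.031).

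Of the remaining members, Col7a1, which forms the anchoring fibrils of skin, rose with vitrification in hippocampus (0.68 ± 0.12) and cortex (0.90 ± 0.13) and with snap-freezing in hippocampus (0.53 ± 0.12), and fell in snap-frozen cortex (-0.71 ± 0.16). Col26a1 rose in vitrified cortex, from 5.6, 8.34 and 7.86 CPM to 11.4, 11 and 10.9 (0.61 ± 0.13), and in snap-frozen hippocampus (0.94 ± 0.15). Its rise of 0.54 ± 0.17 in vitrified hippocampus was lost without fresh replicate 1 (0.34, adjusted p = 0.099), and its fall of 0.41 ± 0.14 in snap-frozen cortex was lost without fresh replicate 2 or 3 or snap-frozen replicate 1 (adjusted p = 0.16, 0.103 and 0.174). Col28a1, known from peripheral nerve, rose in vitrified cortex (1.06 ± 0.23, adjusted p = 0.00038), from 0.944, 1.58 and 1.19 CPM to 2.1, 2.85 and 2.82. In snap-frozen hippocampus it was not called (0.76 ± 0.39, adjusted p = 0.0836) unless fresh replicate 1 was left out (1.16, adjusted p = 0.0294).

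Summed over its members, each class was highest in vitrified cortex and lowest in snap-frozen cortex when the cortex groups alone were set side by side. All 44 collagens together held 587 ± 19.6 CPM (SD, n = 3) in fresh, 454 ± 10.7 in snap-frozen and 779 ± 5.38 in vitrified cortex, and 593 ± 0.224, 619 ± 13.9 and 736 ± 9.38 in hippocampus. The beaded filament class had the widest range in both tissues, from 82.8 ± 0.769 CPM in fresh to 39.8 ± 1.23 in snap-frozen and 123 ± 3.04 in vitrified hippocampus, and from 112 ± 5.26 to 75.8 ± 2.34 and 195 ± 1.05 in cortex. Fibrillar sums were 122 ± 1.2, 177 ± 2.92 and 155 ± 4.41 CPM in fresh, snap-frozen and vitrified hippocampus and 140.4 ± 4.89, 93.7 ± 2.38 and 187 ± 4.2 in cortex. Basement membrane sums were 161 ± 3.71, 145 ± 6.29 and 196 ± 4.46 CPM in hippocampus and 117 ± 4.27, 89 ± 5.16 and 131 ± 4 in cortex. Sums of the other types were 226 ± 1.89, 256 ± 5.1 and 261 ± 1.48 CPM in hippocampus and 218 ± 7.9, 195 ± 3.85 and 266 ± 2.69 in cortex. A sum follows its most abundant members, and sums were not tested.

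**Figure D4:**
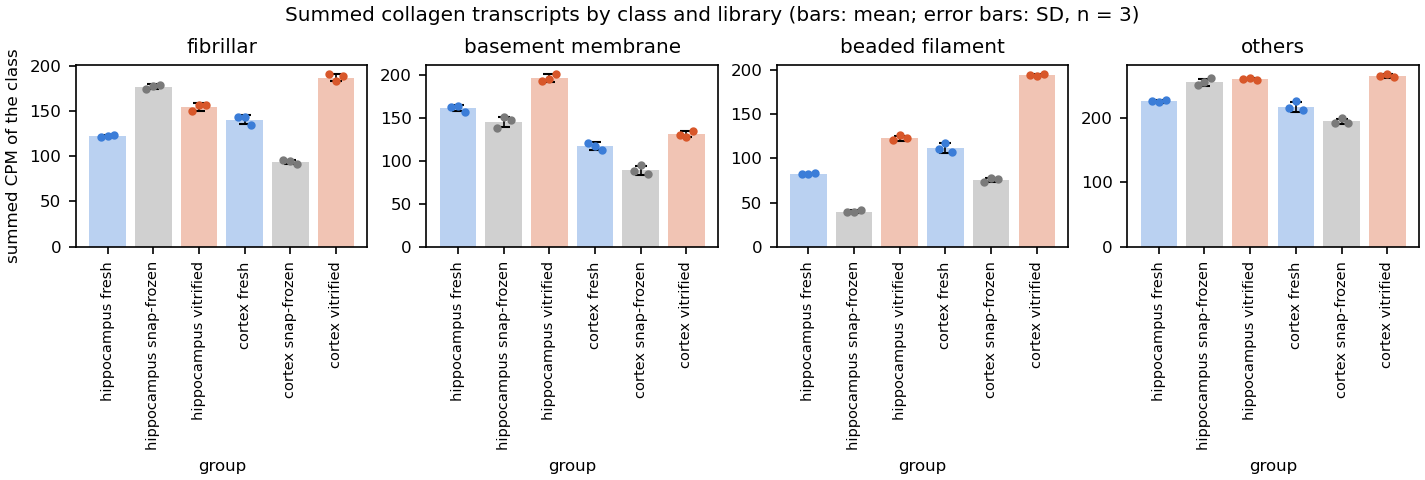
Summed CPM of the collagens of each class (panels) in each of the 3 libraries of each group. The beaded filament sum runs from 38.9 to 41.2 CPM in snap-frozen hippocampus to 194 to 196 CPM in vitrified cortex.

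Change from fresh tissue differed between cortex and hippocampus for 69.8% of tested members with snap-freezing and for 30.2% with vitrification. Of all genes these shares were 55% and 12.9%. The difference, cortex effect minus hippocampus effect, was called for 30 of 43 members with snap-freezing, 24 lower and 6 higher in cortex, where 55% of all 14827 genes were called (28.3% lower, 26.6% higher), and the median was -0.75 against -0.01 over all genes. Differences over 1 on the log2 scale numbered 19 (10.5% of all genes). With vitrification 13 of 43 were called, 8 lower and 5 higher, where 12.9% of all genes were called (5.89% lower, 7.01% higher), at a median of -0.03, and 5 differences were over 1 (1.46%). For vitrification the type I and III chains led, at -1.33 ± 0.19 for Col1a1, -1.48 ± 0.12 for Col1a2 and -1.75 ± 0.25 for Col3a1, with Col4a6 at -1.69 ± 0.40 and Col13a1 at -1.50 ± 0.34. These chains fell in cortex, and in hippocampus none of Col1a1, Col1a2, Col3a1 and Col4a6 was called. Col5a1 gave -0.03 ± 0.08 (adjusted p = 0.897), so a difference between the tissues was not detected for it. Mean fibroblast marker sums were 242 CPM in fresh and 119 in vitrified cortex, and 87.5 and 121 in hippocampus. Choroid plexus sums were 379 and 10.4 CPM in cortex, and 38.1 and 38.4 in hippocampus. Sampled tissue and state cannot be told apart there, and the part of these cells in the differences was not tested.

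For snap-freezing the difference was -5.33 ± 0.29 for Col24a1 (adjusted p = 1.2e-19), -2.52 ± 0.32 for Col8a1, -2.42 ± 0.20 for Col6a3, -2.16 ± 0.10 for Col1a2, -2.14 ± 0.21 for Col3a1 and -2.11 ± 0.10 for Col16a1. The 6 members with a higher effect in cortex were Col6a1 (1.67 ± 0.08, adjusted p = 1.6e-21), Col6a5 (1.25 ± 0.40), Col19a1 (0.81 ± 0.08), Col5a2 (0.80 ± 0.15), Col25a1 (0.51 ± 0.06) and Col20a1 (0.38 ± 0.10). The call of Col6a5 was lost without hippocampus fresh replicate 1 (0.88, adjusted p = 0.0548). In snap-frozen hippocampus all 6 fell, whereas in snap-frozen cortex Col6a1 and Col20a1 fell, Col25a1 rose and Col5a2, Col6a5 and Col19a1 were not called. Each of these values includes the snap-frozen libraries of both tissues, in which region and state cannot be told apart.

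**Figure D5:**
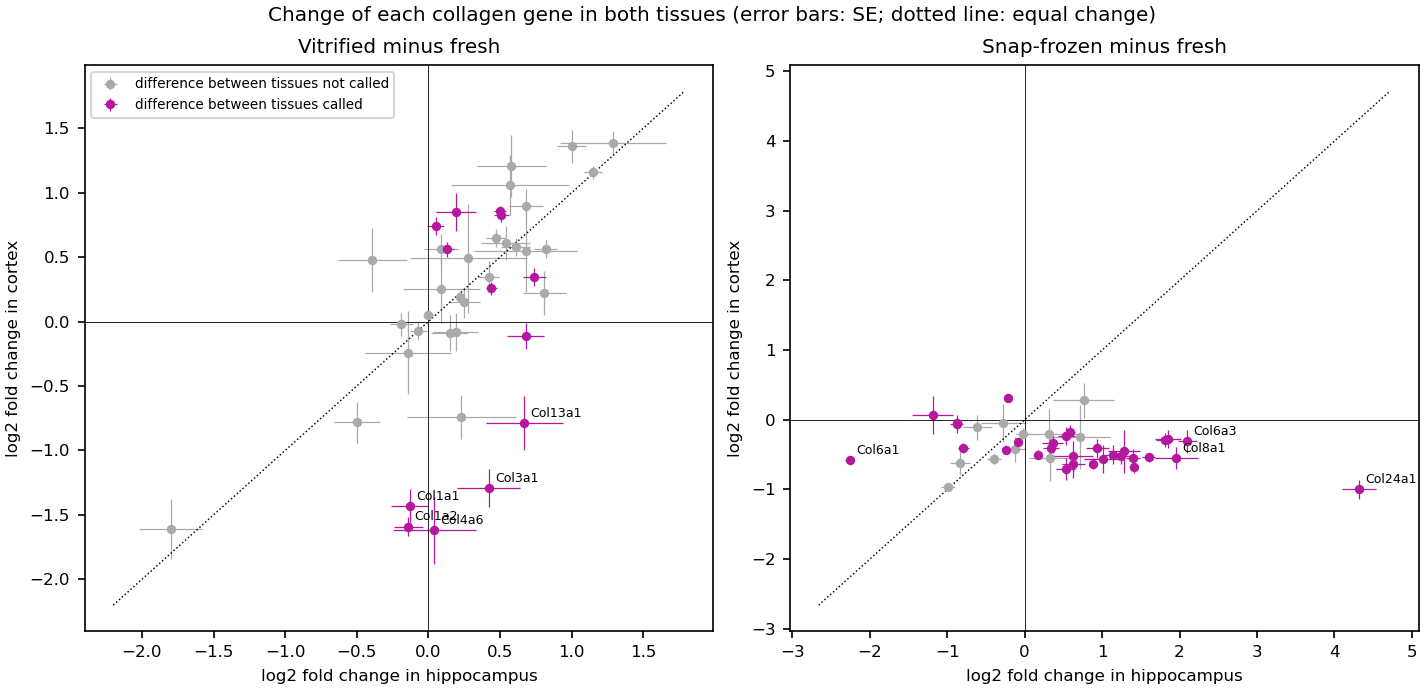
Log2 fold change from fresh tissue in cortex (vertical) against hippocampus (horizontal) for each collagen, for vitrification and for snap-freezing. With snap-freezing Col24a1 lies at 4.32 in hippocampus and -1 in cortex, and with vitrification Col1a2 lies at -0.14 and -1.59.

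Before any treatment the tissues already differed, in a fit of both tables together. Fresh hippocampus was higher than fresh cortex for 12 and lower for 19 of 43 members, where 56.4% of all 14827 genes were called (28.5% higher, 27.8% lower), and 13 differences were over 1 on the log2 scale (10.2%). Lower in hippocampus were Col24a1 (-3.68 ± 0.25), Col8a1 (-2.93 ± 0.24), Col17a1 (-2.21 ± 0.44), Col3a1 (-2.00 ± 0.16) and Col1a2 (-1.93 ± 0.07). Among the higher were Col5a2 (1.36 ± 0.09), Col6a5 (1.02 ± 0.26), Col11a1 (0.82 ± 0.06), Col25a1 (0.78 ± 0.04) and Col4a2 (0.52 ± 0.04). The calls of Col19a1 (0.16 ± 0.06) and Col7a1 (0.36 ± 0.14) were lost, the former without cortex fresh replicate 1 (0.13, adjusted p = 0.0896) or hippocampus fresh replicate 2 (0.14, adjusted p = 0.0703), the latter without hippocampus fresh replicate 2 (0.29, adjusted p = 0.118) or cortex fresh replicate 3 (0.31, adjusted p = 0.0847). In fresh tissue 12 of 14 fibroblast markers and 15 of 16 endothelial markers were lower in hippocampus, and their part in the collagen differences was not tested. The mean striatum sum was 115 CPM in fresh hippocampus and 1388 CPM in fresh cortex, and its part was not tested either.

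Set directly against each other, vitrified and snap-frozen libraries differed for 33 of 41 members in hippocampus, 15 higher and 18 lower in vitrified tissue, where 67.8% of all genes were called (33.8% higher, 34% lower). In cortex 31 of 43 differed, 24 higher and 7 lower, where 49.6% of all genes were called (25.5% higher, 24.2% lower). Libraries did not overlap for 35 members in hippocampus (69.9% of all genes) and 31 in cortex (54.6%), and differences over 1 numbered 16 (11%) and 15 (2.83%). Col6a1 was 6.77-fold higher in vitrified hippocampus (2.76 ± 0.06, adjusted p = 4.7e-38) and 2.72-fold higher in vitrified cortex (1.44 ± 0.04, adjusted p = 8.5e-22). Col5a1 was 4.38-fold higher in hippocampus and 4.35-fold higher in cortex, and Col6a4 was 3.56-fold and 3.92-fold higher. Col24a1 was lower in vitrified hippocampus (-3.03 ± 0.18) and higher in vitrified cortex (2.38 ± 0.11). Type I and III chains were lower in vitrified tissue of both regions, Col1a2 at -1.75 ± 0.08 in hippocampus and -1.05 ± 0.08 in cortex and Col3a1 at -1.43 ± 0.16 and -1.02 ± 0.15. With each library left out in turn, 29 of the 33 calls in hippocampus and 29 of the 31 in cortex held in every fit. Those lost, each at its weakest, were Col4a6 without vitrified replicate 1 (-0.36, adjusted p = 0.272), Col5a3 without snap-frozen replicate 2 (0.23, adjusted p = 0.175), Col6a5 without vitrified replicate 1 (0.66, adjusted p = 0.07) and Col26a1 without vitrified replicate 3 (-0.31, adjusted p = 0.0884) in hippocampus. In cortex they were Col4a5 (-0.34, adjusted p = 0.12) and Col18a1 (0.29, adjusted p = 0.127), both without snap-frozen replicate 1.

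Genes that process collagen moved in both directions in each comparison. Of all genes 23.8% rose and 25.3% fell in vitrified hippocampus, and 23.2% and 17.3% in vitrified cortex. With snap-freezing 31.5% rose and 30.7% fell in hippocampus, and 16.4% and 17.6% in cortex. These shares stand beside every list below, and a list near them does not stand apart from all genes. Of 30 tested genes of collagen processing and crosslinking, 7 rose and 12 fell in vitrified hippocampus, 6 rose and 11 fell in vitrified cortex, 15 rose and 7 fell in snap-frozen hippocampus and 1 rose and 8 fell in snap-frozen cortex, with medians of -0.11, -0.06, 0.14 and -0.18 against 0.01, 0.03, 0.01 and 0.00 over all genes. Bmp1, the protease that trims procollagen ends, rose with vitrification in hippocampus (0.64 ± 0.03) and cortex (0.66 ± 0.04) and fell with snap-freezing (-0.30 ± 0.04 and -0.54 ± 0.05). Serpinh1, the collagen chaperone HSP47, fell in vitrified cortex (-0.79 ± 0.07), in snap-frozen cortex (-0.32 ± 0.07) and in vitrified hippocampus (-0.72 ± 0.08), and rose in snap-frozen hippocampus (0.59 ± 0.06). The type I chains moved in the same direction in 3 of these comparisons, and in vitrified hippocampus they were not called. Of 9 tested collagen receptors 5 fell and 0 rose in each vitrified tissue, 6 rose and 0 fell in snap-frozen hippocampus and 1 rose and 2 fell in snap-frozen cortex, with medians of -0.24 in both vitrified tissues, 0.39 and -0.04. Adgrg1, the receptor of type III collagen, fell with vitrification (-0.57 ± 0.05 in hippocampus, -0.24 ± 0.05 in cortex) and rose with snap-freezing (0.84 ± 0.04 and 0.17 ± 0.05).

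Of 11 tested genes of collagen breakdown, 2 rose and 6 fell in each vitrified tissue, 8 rose and 2 fell in snap-frozen hippocampus and 1 rose and 4 fell in snap-frozen cortex, with medians of -0.09 in vitrified hippocampus, -0.11 in vitrified cortex, 0.43 and -0.18. Timp4, an inhibitor of matrix proteases, fell with vitrification (-1.26 ± 0.06 in hippocampus, -0.80 ± 0.06 in cortex), rose in snap-frozen hippocampus (0.21 ± 0.05) and fell in snap-frozen cortex (-0.27 ± 0.06). Among 16 other basement membrane genes 4 rose and 3 fell in vitrified hippocampus, 5 rose and 4 fell in vitrified cortex, 10 rose and 2 fell in snap-frozen hippocampus and 0 rose and 3 fell in snap-frozen cortex, with medians of 0.15, -0.04, 0.43 and -0.09 in that order. Sparc, which binds type IV collagen, fell in both vitrified tissues, where Col4a1 and Col4a2 rose, by 1.16 ± 0.02 in hippocampus and by 0.64 ± 0.03 in cortex, and rose by 1.45 ± 0.02 in snap-frozen hippocampus, where Col4a2 fell. In snap-frozen cortex, where both chains fell, Sparc gave 0.00 ± 0.03 and was not called (adjusted p = 0.989). Among 19 other interstitial genes 13 fell and 3 rose in vitrified cortex, 8 rose and 3 fell in vitrified hippocampus, 11 rose and 4 fell in snap-frozen hippocampus and 5 fell and 2 rose in snap-frozen cortex, with medians of -0.39, 0.12, 0.28 and -0.12. Dcn, Lum, Ogn and Fmod of this list are also among the fibroblast markers above, so these lists overlap. Fmod, which binds type I fibrils, fell by 1.30 ± 0.08 in vitrified and by 0.71 ± 0.07 in snap-frozen cortex and rose by 2.05 ± 0.14 in snap-frozen and by 1.41 ± 0.16 in vitrified hippocampus. In vitrified hippocampus the type I chains were not called. Of 10 genes of the neural matrix, 6 fell and 1 rose in vitrified hippocampus, 4 fell and 1 rose in vitrified cortex, 5 rose and 3 fell in snap-frozen hippocampus and 4 fell and 0 rose in snap-frozen cortex, with medians of -0.33, -0.02, 0.19 and -0.07.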

How the data were processed

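Poly(A)-selected, strand-marked RNA-seq libraries of 18 samples, 3 for each of 6 groups, were measured. Per the submitters' processing notes, HISAT2 2.0.4 and GRCm38.p6 were used; the counting tool, strand setting and annotation were not given in the sources used here. Deposited tables hold estimated counts per gene, one table per tissue, and were rounded to whole numbers before testing. Genes were filtered with filterByExpr, scaled by TMM and tested with edgeR 4.0.16 (quasi-likelihood, R 4.3.3, limma 3.58.1) in a fit of the 9 libraries of a tissue, or of all 18 for comparisons between tissues, with Benjamini-Hochberg adjustment over all genes tested. Differences between tissues in an effect are interaction terms. CPM values are counts per 1000000 of the TMM-scaled library total, scaled within a tissue, and lengths and exon overlaps came from GENCODE M21. The fits were run on data simulated with the spread estimated from these libraries, which cannot show whether that spread is technical.

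The members, gene lists and tests were chosen with earlier results of these data known. Named genes were 12 fixed members, the 10 largest called members of each comparison with at least 1 CPM in the higher group, every member where a class is described in full, and up to 4 genes of each matrix list with the smallest p. The labels do not say whether replicate numbers pair libraries, and the main fits did not pair them. Alternatives were DESeq2 1.42.0, other scalings and filters, GC and length offsets, a replicate block and leaving out each library.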

Additional observations from a re-analysis of the deposited data

Results flagged for a closer look

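The effect of a treatment differed between cortex and hippocampus by its interaction test for the named collagens that follow, and each value is the log2 effect in cortex minus that in hippocampus. For vitrification the effect was lower in cortex at -1.33 for Col1a1, -1.48 for Col1a2, -1.75 for Col3a1, -0.22 for Col4a1, -1.69 for Col4a6, -0.83 for Col9a2, -1.50 for Col13a1 and -0.43 for Col23a1. It was higher in cortex at 0.63 for Col5a3, 0.32 for Col6a1, 0.66 for Col11a1, 0.39 for Col11a2 and 0.28 for Col19a1. The calls of Col4a1 and Col5a3 were lost when 1 of several libraries was left out, Col4a1 at -0.18 without hippocampus vitrified replicate 3 (adjusted p = 0.126) and Col5a3 at 0.54 without cortex fresh replicate 1 (adjusted p = 0.0929). Fibroblast marker sums also differ between vitrified and fresh tissue in both regions, and choroid plexus sums in cortex. Sampled tissue and state cannot be told apart there.

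For snap-freezing the effect was lower in cortex at -1.77 for Col1a1, -2.16 for Col1a2, -1.74 for Col2a1, -2.14 for Col3a1, -0.24 for Col4a1, -0.21 for Col4a2, -2.42 for Col6a3, -2.52 for Col8a1, -2.11 for Col9a2, -1.96 for Col15a1, -2.11 for Col16a1, -1.65 for Col18a1 and -5.33 for Col24a1. It was higher in cortex at 1.67 for Col6a1, 0.81 for Col19a1 and 0.51 for Col25a1. The call of Col4a1 was lost without hippocampus snap-frozen replicate 2 (-0.18, adjusted p = 0.0522), and GC and length offsets took the calls of Col4a1 (-0.14) and Col4a2 (-0.08). Thalamus and hippocampal field markers also differ between snap-frozen and fresh hippocampus, and region and state cannot be told apart there. The same limit holds for snap-frozen cortex, where hippocampal field and striatum sums differ from fresh cortex.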

How the results depend on the processing

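Counts of called members were within 1.5 times the main count in 145 of 154 alternatives; the cause of each change was not tested. Asking in addition for a log2 change over 1 left 3 members in vitrified and 14 in snap-frozen against fresh hippocampus, 16 between vitrified and snap-frozen hippocampus, 10 in vitrified and 0 in snap-frozen against fresh cortex (edgeR calls 24 of these without that demand, and 0.705% of all genes passed with it), 15 between vitrified and snap-frozen cortex, 13 between fresh tissues, and 5 and 19 for the differences between tissues in the vitrification and snap-freezing effects. In the same order, leaving out 1 library gave 17 to 21, 30 to 34, 29 to 32, 27 to 29, 19 to 23, 29 to 32, 29 to 31, 11 to 14 and 29 to 31 calls, and DESeq2 gave 17, 31, 29, 27, 21, 29, 29, 11 and 30. Correlations of deviations between libraries with the same replicate number were -0.09 to 0.06. Libraries of a group differ little, so such values cannot exclude a pairing, and the labels name no animals. The fits with a replicate block called 21, 34, 32, 28, 23, 31, 31, 13 and 30. Results that turned direction were Col4a1 in snap-frozen hippocampus under library totals (0.03) and the difference between tissues in the vitrification effect of Col25a1 (-0.03 with GC and length offsets, and -0.01 to 0.07 when 1 library was left out, with -0.01 without cortex fresh replicate 3 or cortex vitrified replicate 2); none of these was called. Scaling by library totals moved the median of all genes by 0.13 in snap-frozen hippocampus. Members under about 1 CPM rest on few counts.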
